A study of Mus musculus with 8 samples.

Results

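The genes described here are 51 mouse genes of the cell division cycle, which were set out by phase as 20 cyclins, cyclin-dependent kinases (CDKs), inhibitors and G1 regulators, 18 genes of S phase and 13 genes of mitosis. They were followed in liver through the probes whose platform symbol is 1 of these genes. A probe was called detected on an array where its detection p-value, which ranks it among the negative control beads, was under 0.05, and a gene was counted when it was detected on at least 4 of the 8 arrays. By this rule 32 of the 51 genes were counted, among 8134 genes counted on the array in all. Total RNA came from the left liver lobe of 4 Snd1 knockout (KO) and 4 wild type (WT) male mice aged 8 to 12 weeks, not fasted and killed at about noon, and was hybridised, each liver to an array of its own, to Illumina MouseRef-8 v2.0 bead arrays. The KO animals were homozygous for a germline deletion of the first exon of Snd1 in every tissue. The deletion was made in R1 embryonic stem cells and with CAG-Cre and was backcrossed to C57BL/6N. By the study's methods the animals were littermates born to heterozygous pairs, so WT animals came from the same backcross. The gene encodes an RNA-binding protein that carries a Tudor domain beside repeated nuclease-like domains. Apart from Snd1 the labels and methods name no allele that differs between the groups, though stem cell strain sequence linked to the deletion may differ. No agent was given.

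In the cell cycle D-type cyclins activate CDK4 and CDK6 in G1, cyclin E activates CDK2, and together these kinases phosphorylate the retinoblastoma protein and free the E2F factors that switch on the genes of DNA replication. Replication origins are licensed when ORC, CDC6 and CDT1 load the MCM helicase, and a later wave of transcription supplies the cyclins, kinases and checkpoint proteins of mitosis. Hepatocytes of the adult liver are mostly quiescent and enter this program after loss of liver tissue, so the message of many of these genes is scarce in resting liver.

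The array values are log2 intensities after background correction and quantile normalisation, and each fold change is KO minus WT on that log2 scale. Snd1 itself had values of 4.24, 4.20, 4.22 and 4.15 on KO 1 to KO 4, against 6.80, 6.78, 6.77 and 6.88 on WT 1 to WT 4. Its probe was not detected on any KO array, which places it at least 4.94-fold lower in KO than in WT when the KO arrays are set at their lowest detected signal (limma, adjusted p = 2.98e-07). Between 10684 and 12134 probes were detected per array. Before normalisation the mean intensity was 215 on KO 1 and 223 on KO 4, against 281 to 290 on the other KO arrays and 262 to 283 on the WT arrays. The KO arrays were also spread more widely than the WT arrays. Along the component with the most variance (44.5%) KO 1 to KO 4 lay at −7.40, 6.79, 21.2 and 32.4, whereas the WT arrays lay between −14.9 and −10.6. Hepatocyte markers were present as the tissue label requires, with 7 of 9 measured and Tat and Fgb not detected on any array.

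Promoter sequences show what the phases have in common apart from their measured levels. RefSeq promoter windows (GRCm38.p6, 250 bases before to 50 bases after the start of transcription) were at hand for 41 of the 51 genes, as 48 windows, since 6 genes had more than 1. The windows of 3 helicase genes and 2 mitosis genes are printed as examples, picked because they hold the letters marked in capitals. All are 5′ to 3′ on the strand of the gene. In Mcm3, Mcm5 and Mcm6 the capitals mark E2F letters (TTTCCCGC, TTTGGCGC or TTCCCGCC on either strand, of which the first and the last can overlap) and the CCAAT box (CCAAT, or ATTGG on the other strand). In Cdc20 and Plk1 they mark the CCAAT box and the cell cycle homology region, or CHR (TTTGAA), an element found in late cell cycle promoters.
Mcm3 (chr1:20820263-20820562, minus strand): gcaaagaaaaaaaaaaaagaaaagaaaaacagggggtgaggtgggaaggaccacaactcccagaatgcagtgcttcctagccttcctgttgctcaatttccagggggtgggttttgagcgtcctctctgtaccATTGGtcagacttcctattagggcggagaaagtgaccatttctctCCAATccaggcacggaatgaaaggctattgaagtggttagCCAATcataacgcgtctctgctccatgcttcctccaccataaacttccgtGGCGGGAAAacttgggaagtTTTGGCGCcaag
Mcm5 (chr8:75109259-75109558, plus strand): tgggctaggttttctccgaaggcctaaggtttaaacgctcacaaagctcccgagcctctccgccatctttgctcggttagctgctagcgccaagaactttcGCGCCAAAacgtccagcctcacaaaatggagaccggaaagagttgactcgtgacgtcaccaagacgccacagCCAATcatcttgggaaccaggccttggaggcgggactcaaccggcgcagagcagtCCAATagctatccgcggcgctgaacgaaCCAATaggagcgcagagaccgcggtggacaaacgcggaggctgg
Mcm6 (chr1:128359656-128359955, minus strand): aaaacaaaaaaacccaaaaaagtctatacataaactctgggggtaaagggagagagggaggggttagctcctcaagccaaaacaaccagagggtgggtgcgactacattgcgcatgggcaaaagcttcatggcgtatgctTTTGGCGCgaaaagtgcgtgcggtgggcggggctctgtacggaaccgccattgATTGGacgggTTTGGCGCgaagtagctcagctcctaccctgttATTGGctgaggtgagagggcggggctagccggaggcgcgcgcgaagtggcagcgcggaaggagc
Cdc20 (chr4:118437294-118437593, minus strand): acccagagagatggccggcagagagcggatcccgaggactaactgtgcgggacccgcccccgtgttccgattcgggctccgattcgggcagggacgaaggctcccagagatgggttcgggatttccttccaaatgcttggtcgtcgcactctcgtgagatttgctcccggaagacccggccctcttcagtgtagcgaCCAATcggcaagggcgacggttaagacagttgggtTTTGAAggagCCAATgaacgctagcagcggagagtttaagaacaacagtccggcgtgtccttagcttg
Plk1 (chr7:122159185-122159484, plus strand): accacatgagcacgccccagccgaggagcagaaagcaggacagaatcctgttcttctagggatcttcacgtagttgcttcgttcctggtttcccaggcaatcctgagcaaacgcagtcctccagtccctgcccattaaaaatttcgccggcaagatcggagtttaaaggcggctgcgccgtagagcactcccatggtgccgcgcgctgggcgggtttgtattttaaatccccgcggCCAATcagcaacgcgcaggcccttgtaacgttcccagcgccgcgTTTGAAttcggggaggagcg

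E2F letters stood in 9 of the 20 S phase windows (45%) and in 1 of the 17 windows of cyclins and inhibitors. They stood in 0 of the 11 mitosis windows and in 3.21% of all 32851 windows of the same length in the table. Of the 6 Mcm windows, which belong to Mcm2, Mcm3, Mcm5, Mcm6 and Mcm7, 4 held them (66.7%). The window of Mcm2 and a window of Mcm7 did not, and Mcm4 had no window. CHR letters ran the other way between these phases, with 7 of 11 mitosis windows (63.6%) and 2 of 20 S phase windows. They stood in 2 of 17 windows of cyclins and inhibitors and in 17.9% of all windows. The windows of the mitosis genes Birc5, Bub1, Mad2l1 and Nusap1 held no CHR letters. CCAAT was common everywhere and stood in 8 of 11 mitosis windows (72.7%), 10 of 20 S phase windows and 9 of 17 windows of cyclins and inhibitors, against 37.4% of all windows. The letters of the E-box (CACGTG) stood in 4 of 17 windows of cyclins and inhibitors, 3 of 20 S phase windows and 0 of 11 mitosis windows, against 7.15% of all windows. These are counts of letters without a test, and nothing was measured on these arrays about the factors that bind such letters.

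**Figure D1:**
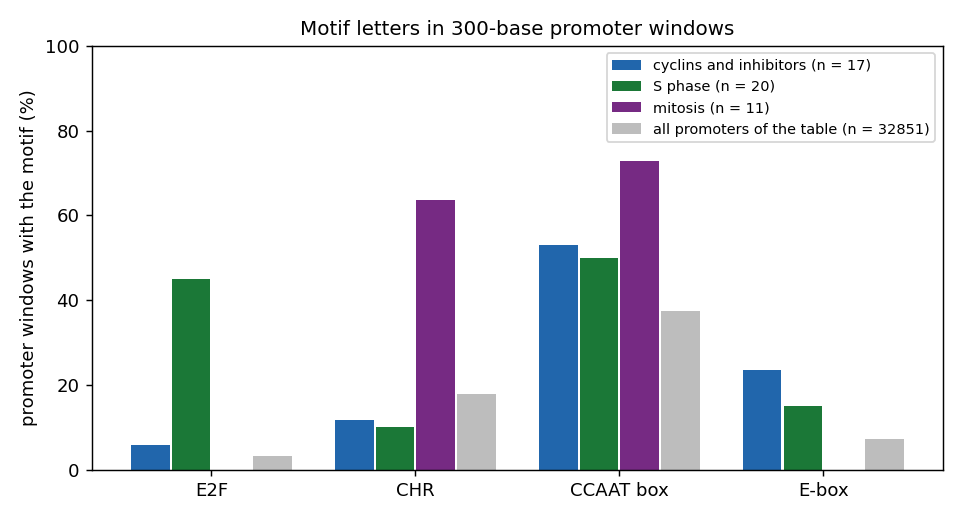
Share of promoter windows (y axis, percent) that hold the letters of 4 motifs on either strand, with coloured bars for the 3 phases and a grey bar for all 32851 windows of the table. E2F letters are most frequent in S phase windows (45%) and CHR letters in mitosis windows (63.6%).

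Detection set the limit of what could be compared. Of the 51 genes 5 had no named probe (Ccnb1, Cdk4, Trp53, Aurkb and Mki67) and are not analysed here. Another 14 had a probe that was detected on fewer than 4 arrays. Among these Ccna2, Ccnb2, Cdk6, Gmnn, Pcna, Prim1, Ube2c, Bub1 and Stmn1 were detected on 0 arrays, Ccne2 and Cdc6 on 1, Myc on 2, and Cdkn1b and Aurka on 3. The classical cyclins of S phase and mitosis (Ccna2 and Ccnb2) and the polymerase clamp gene Pcna had 1 probe each, which was not detected in any of the 8 livers. A probe that is not detected puts an upper bound on its transcript only where the probe itself works. Of 3 Mcm4 probes 1 was detected on 8 arrays and the others on 0, and the hepatocyte marker Fgb was not detected on any array.

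Counted were 11 of 20 cyclins, inhibitors and regulators, 14 of 18 S phase genes and 7 of 13 mitosis genes, of which 8, 10 and 1 were detected on all 8 arrays. Mad2l1, a spindle checkpoint gene, was that 1 mitosis gene. Just inside the threshold, on 4 arrays, were Mcm7 (means of 4.50 in KO and 4.51 in WT) and Nusap1 (4.49 in KO and 4.56 in WT), both on 2 KO and 2 WT arrays. Just outside it, on 3 arrays, were Aurka (4.59 in KO and 4.40 in WT) and Cdkn1b (4.56 in KO and 4.48 in WT). The lowest detected signal of an array was 4.44 to 4.61 on the same scale, so values near 4.5 lie at the edge of detection. Out of the 46 genes with a probe, 25, 28, 35 and 33 were detected on KO 1 to KO 4, against 28, 31, 29 and 31 on WT 1 to WT 4. Over all probes the share detected was 41.6% on KO 1 and 44.5% to 47.2% on the other arrays. Ccne1 (4 KO arrays and 1 WT array) and Bub1b (1 KO array and 4 WT arrays) were counted mainly through 1 group, which favours a difference in that direction.

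**Figure D2:**
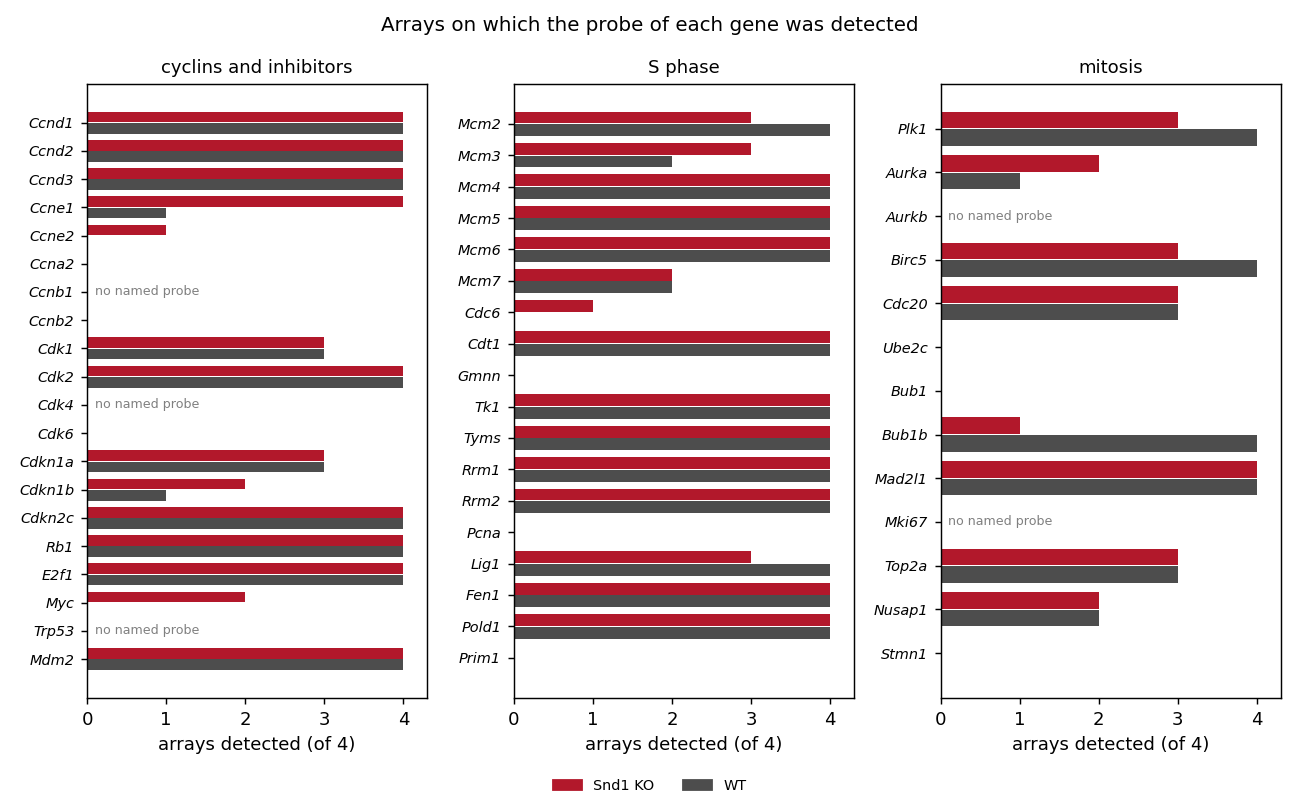
Number of arrays (x axis, of 4 per group) on which each of the 51 genes was detected, with the Snd1 KO bar above the WT bar and 1 panel per phase. Genes without bars were detected on 0 arrays or, where so marked, had no named probe, and Ccne1 and Bub1b show the most unequal detection between the groups.

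None of the 32 counted genes passed the test between KO and WT livers, whereas 207 of all 8134 genes did (2.54%; limma, adjusted p under 0.05). Among the 32 genes 16 had a mean above and 16 a mean below that in WT, and the median log2 fold change was 0.02, beside −0.0014 over all genes. An unadjusted p under 0.05 was reached by 3 of the 32 genes (9.38%), against 17.4% of all genes (8.85% with higher values in KO), and these were Ccnd1, Ccnd3 and Ccne1. In the same 3 genes the lowest KO value was above the highest WT value. Of these Ccne1 was counted mainly through the KO arrays (4 KO and 1 WT), which favours a difference in that direction. Over all genes 5.37% were without overlap in that direction and 5.38% in the other. In bulk tissue fewer cells of a type and less RNA per cell cannot be told apart, and this holds for every value below.

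**Figure D3:**
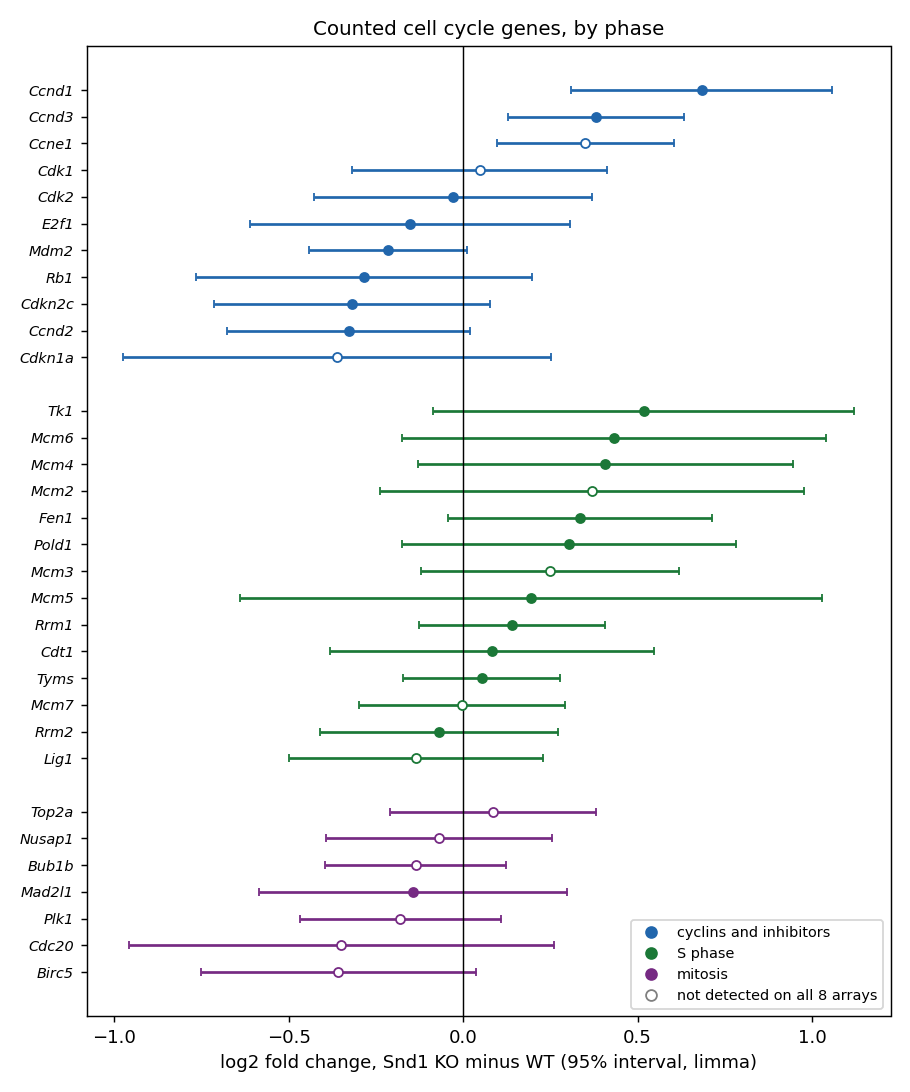
Log2 fold change of each counted gene (x axis, KO minus WT) with its 95% limma interval, in 3 blocks by phase, where filled points are genes detected on all 8 arrays. Intervals that leave 0 out belong to Ccnd1, Ccnd3 and Ccne1 alone, 11 of 14 S phase points lie right of 0, and 6 of 7 mitosis points lie left of it.

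The highest fold change of the set belonged to Ccnd1, the cyclin through which mitogens act on CDK4 and CDK6 in hepatocytes. Its values were 9.73, 9.88, 9.41 and 9.68 on KO 1 to KO 4, against 8.64, 9.17, 8.80 and 9.34 on WT 1 to WT 4. By this probe all 4 KO livers lay above all 4 WT livers, with the narrowest gap between KO 3 and WT 4. The difference was 0.68 ± 0.17 (SE) on the log2 scale, or 1.61-fold, with a 95% interval of 0.31 to 1.06, and it missed the threshold (limma, adjusted p = 0.0630). In the order of p-values it was number 270 of 8134, and the highest unadjusted limma p of a called gene was 0.00127, against 0.00210 for Ccnd1. Its other probes gave differences of 0.60 (limma, adjusted p = 0.121) and 0.52 (limma, adjusted p = 0.125). By both of these the groups overlapped, with 8.96 to 9.45 in KO livers and 8.32 to 9.02 in WT livers for the first, and 6.48 to 7.05 in KO livers and 6.12 to 6.53 in WT livers for the second.

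Ccnd3, a further D-type cyclin, had values of 8.53, 8.61, 8.36 and 8.37 on KO 1 to KO 4, against 8.21, 8.12, 7.89 and 8.13 on WT 1 to WT 4. KO and WT livers did not overlap, and the difference of 0.38 ± 0.11 (SE) did not pass the test (limma, adjusted p = 0.117). A separate Ccnd3 probe gave 0.39 (limma, adjusted p = 0.148). The D-type cyclin Ccnd2 stood on the other side of 0. It measured 4.81 to 5.36 in KO livers and 5.25 to 5.78 in WT livers, and its difference was −0.33 ± 0.16 (SE; limma, adjusted p = 0.315). The 3 D-type cyclins therefore did not share a direction, and for none of them was the difference past the threshold.

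Ccne1, which drives CDK2 at the entry to S phase, had values of 4.71, 4.70, 4.78 and 4.82 on KO 1 to KO 4, against 4.48, 4.56, 4.15 and 4.42 on WT 1 to WT 4. These levels lie at the edge of detection, and the probe was detected in 4 KO livers and 1 WT liver. The difference was 0.35 ± 0.11 (SE; limma, adjusted p = 0.147). Without background correction it shrank to 0.11 with the same sign. Cdk1 and Cdk2, the kinases of mitosis and of S phase, had differences of 0.05 and −0.03 with overlapping groups. Other Cdk2 probes, also detected on 8 arrays, gave 0.16 (limma, adjusted p = 0.561) and 0.09 (limma, adjusted p = 0.775), so the Cdk2 probes disagreed in direction.

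**Figure D4:**
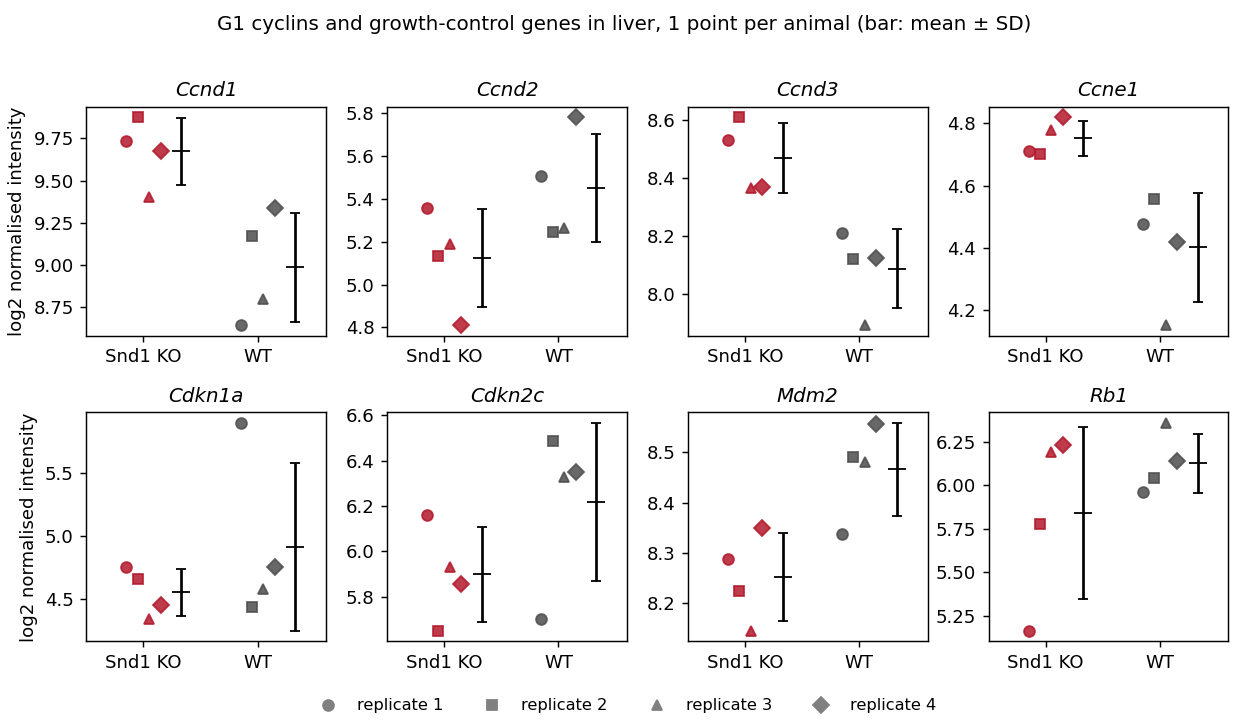
Log2 normalised intensity (y axis, own range per panel) of 8 cyclins, inhibitors and regulators in Snd1 KO (left) and WT livers (right), 1 point per animal, with the mean ± SD of 4 animals beside them. The groups are apart in Ccnd1, Ccnd3 and Ccne1 and overlap in the other 5 genes.

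All 5 counted inhibitors and regulators had means below WT, and none passed the test. Cdkn1a, the p53-inducible CDK inhibitor p21, had values of 4.75, 4.67, 4.35 and 4.46 on KO 1 to KO 4, against 5.90, 4.44, 4.58 and 4.75 on WT 1 to WT 4. A single WT liver, WT 1, carried most of the difference of −0.36 ± 0.28 (SE; limma, adjusted p = 0.541), which was −0.04 without it. A separate Cdkn1a probe measured 4.40 to 4.62 in KO livers and 4.71 to 5.24 in WT livers, without overlap, and gave −0.36 (limma, adjusted p = 0.183). Cdkn2c, an inhibitor of CDK4 and CDK6, had a difference of −0.32 with overlapping groups. Mdm2, the ubiquitin ligase of p53 and also its target, had −0.22 ± 0.10 (SE; limma, adjusted p = 0.312), with 8.14 to 8.35 in KO livers and 8.34 to 8.56 in WT livers. Rb1 and E2f1 had differences of −0.28 and −0.15 (limma, adjusted p = 0.542 for Rb1), and both had their lowest value of the 8 livers on KO 1. As a group the 11 cyclins, inhibitors and regulators had a median of −0.15 with a range of −0.36 to 0.68, and the sign of that median turned when KO 1 was left out (0.05).

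Most S phase genes had higher means in KO than in WT livers, but none passed the test. Of the 14 counted genes 11 were above and 3 below WT, with a median log2 fold change of 0.22 and a range of −0.13 to 0.52, and the lowest adjusted p was 0.347 (limma, Fen1). Over all genes 49.7% were above WT. The median stayed between 0.15 and 0.30 when each liver was left out in turn, while the number of genes above WT ran from 9 without KO 4 or without WT 1 to 13 without KO 1.

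Tk1, the thymidine kinase of the salvage pathway, had the highest fold change among them. Its values were 6.90, 7.47, 7.90 and 8.09 on KO 1 to KO 4, against 6.45, 7.39, 7.30 and 7.14 on WT 1 to WT 4, so KO 2 to KO 4 lay above every WT liver and KO 1 did not. The difference was 0.52 ± 0.27 (SE; limma, adjusted p = 0.362). It was 0.75 without KO 1, 0.35 without KO 4 and 0.31 without WT 1. A separate Tk1 probe gave 0.20 (limma, adjusted p = 0.615). The other genes of nucleotide supply, Tyms, Rrm1 and Rrm2, had differences of 0.05, 0.14 and −0.07. A separate Tyms probe, also detected on all 8 arrays, gave −0.27 (limma, adjusted p = 0.451), so the probes of Tyms disagreed in direction.

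The Mcm genes, which encode the subunits of the replicative helicase, were all 6 counted, and 5 of them were above WT. Mcm6 had values of 4.86, 5.35, 5.76 and 6.22 on KO 1 to KO 4, against 4.61, 5.43, 5.12 and 5.32 on WT 1 to WT 4. Only KO 3 and KO 4 exceeded every WT liver, and the difference was 0.43 ± 0.27 (SE; limma, adjusted p = 0.449), with 0.41 and 0.27 from its other probes. Mcm4 had values of 6.69, 7.38, 7.43 and 7.97 on KO 1 to KO 4, against 6.70, 7.31, 6.76 and 7.06 on WT 1 to WT 4. Here KO 2 to KO 4 lay above the WT livers and KO 1 level with the lowest of them, with a difference of 0.41 ± 0.24 (SE; limma, adjusted p = 0.420). Without KO 4 the differences of Mcm6 and Mcm4 were 0.21 each, and without KO 1 they were 0.66 for Mcm6 and 0.63 for Mcm4. Mcm2, Mcm3 and Mcm5 had differences of 0.37, 0.25 and 0.19, and Mcm7 had −0.004, all with overlapping groups. The sign of Mcm5 turned without KO 4 (−0.14) and without WT 1 (−0.07), and that of Mcm7, which was near 0, turned under 6 alternatives. The licensing factor Cdt1 had 0.08. Mcm2, like Ccnd2 and Mad2l1 of the other phases, lies on chromosome 6 with Snd1, and the part of stem cell strain sequence linked to the deletion was not tested.

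At the replication fork Fen1, the flap nuclease that trims Okazaki fragments, had a difference of 0.33 ± 0.17 (SE; limma, adjusted p = 0.347), with 6.15 to 6.91 in KO livers and 6.05 to 6.52 in WT livers. Pold1, the catalytic subunit of polymerase delta, had 0.30 (limma, adjusted p = 0.506), which was 0.53 without KO 1 and 0.17 without KO 2, and the ligase gene Lig1 had −0.13. Fen1 did not follow the Mcm genes, since its lowest KO value was on KO 4.

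Most mitosis genes had lower means in KO than in WT livers, again without a call. Of 7 counted genes 1 was above and 6 below WT, with a median log2 fold change of −0.14 and a range of −0.36 to 0.09. Birc5, which encodes survivin, a subunit of the chromosomal passenger complex, had values of 4.46, 4.49, 5.06 and 4.79 on KO 1 to KO 4, against 4.68, 5.16, 5.37 and 5.02 on WT 1 to WT 4. The difference was −0.36 ± 0.18 (SE; limma, adjusted p = 0.334), with overlapping groups. Cdc20, the activator of the anaphase-promoting complex, had values of 4.35, 4.73, 4.72 and 5.12 on KO 1 to KO 4, against 4.48, 5.14, 5.90 and 4.80 on WT 1 to WT 4. Its difference of −0.35 ± 0.28 (SE; limma, adjusted p = 0.554) rested largely on WT 3, without which it was −0.08. The mitotic kinase gene Plk1 had values of 4.34, 4.51, 4.65 and 4.73 on KO 1 to KO 4, against 4.58, 4.59, 4.95 and 4.83 on WT 1 to WT 4, and a difference of −0.18 (limma, adjusted p = 0.517), which was −0.11 without KO 1 or without WT 3. The spindle checkpoint genes Bub1b and Mad2l1 had −0.14 each, Nusap1, a spindle protein gene, had −0.07, and the topoisomerase gene Top2a had 0.09. As 6 of these 7 genes were undetected on at least 1 array, their differences are compressed towards 0 by the offset of the background correction.

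The S phase genes and the mitosis genes also varied among the KO livers, with KO 1 low and KO 4 high. This pattern was noticed after the values were seen, and it is given as a description without a test. KO 4 had the highest value of all 8 livers in 6 of 6 Mcm genes and 9 of 14 S phase genes (64.3%). The same held for 2 of 7 mitosis genes and 14 of 32 counted genes (43.8%), against 22.6% of all genes. Within the KO group KO 4 was highest in 10 of 14 S phase genes and 5 of 7 mitosis genes, against 32.1% of all genes. KO 1 had the lowest value of the KO livers in 5 of 6 Mcm genes, 10 of 14 S phase genes, 6 of 7 mitosis genes and 20 of 32 counted genes (62.5%), against 35.5% of all genes. KO 4 minus KO 1 had a median of 1.32 on the log2 scale over the Mcm genes, 0.82 over the S phase genes, 0.38 over the mitosis genes and 0.06 over the cyclins, inhibitors and regulators, beside 0.03 over all genes. A gap above 1 was seen in 4 of 6 Mcm genes and 5 of 14 S phase genes, against 3.25% of all genes.

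Mcm5 shows the span most clearly, with 5.32, 6.24, 6.04 and 7.20 on KO 1 to KO 4, against 5.21, 6.21, 6.03 and 6.57 on WT 1 to WT 4. Mcm2 had 4.43, 5.50, 5.26 and 5.91 on KO 1 to KO 4, against 4.89, 5.12, 4.51 and 5.09 on WT 1 to WT 4. Mcm3 had 4.72, 4.40, 4.87 and 5.11 on KO 1 to KO 4, against 4.33, 4.83, 4.40 and 4.54 on WT 1 to WT 4, and it was the 1 Mcm gene whose lowest KO value was on KO 2. The span of Mcm5 was 1.88 among KO livers and 1.36 among WT livers, so WT livers also differed, and WT 1 had the lowest WT value in 9 of 14 S phase genes and 21 of 32 counted genes (65.6%), against 30.6% of all genes. The SD among KO livers exceeded that among WT livers in 12 of 14 S phase genes, 3 of 11 cyclins, inhibitors and regulators and 3 of 7 mitosis genes, against 70.3% of all genes. Per array the median of the 14 S phase genes was 5.30, 5.98, 5.96 and 6.16 on KO 1 to KO 4, against 5.30, 5.64, 5.59 and 5.81 on WT 1 to WT 4.

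**Figure D5:**
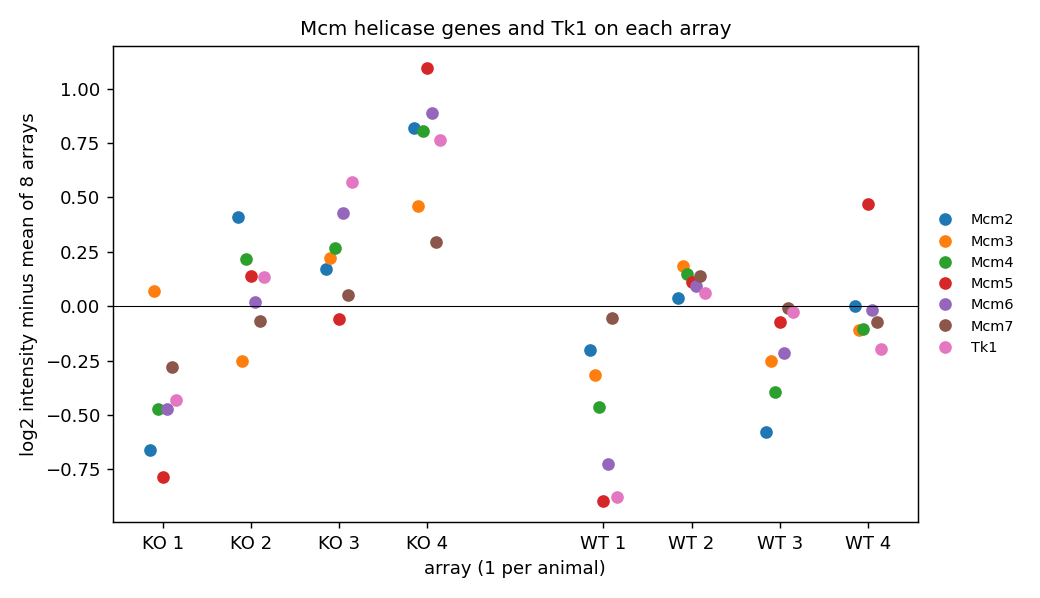
Log2 intensity of 6 Mcm genes and Tk1 on each array minus the mean of that gene over the 8 arrays (y axis), with the 4 KO arrays on the left and the 4 WT arrays on the right. Most genes lie below 0 on KO 1 and WT 1, and all 7 lie above 0 on KO 4.

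Several measures were lowest on KO 1 and highest on KO 4 among the KO livers. The position on the first component was 1 of them. Before normalisation KO 1 and KO 4 were both dim, with mean intensities of 215 and 223. Detection differed between them. KO 1 had the fewest probes detected of all arrays (10684, or 41.6%), against 11956 (46.5%) on KO 4. Its lowest detected signal was the highest of all arrays (4.61), against 4.45 on KO 4. The part of array quality in the S phase values was not tested. Marker genes of cell types were summed over all that had a probe, as normalised intensity above the offset on the linear scale, and a marker counts as measured here where it was detected on at least 4 arrays. Kupffer cell and macrophage markers (4 of 5 measured, Cd5l not detected) summed to 802, 1032, 1241 and 1489 on KO 1 to KO 4, and to 934 to 1547 in WT livers, where WT 1 was also the lowest. Stellate cell and fibroblast markers (6 of 8 measured, Col1a2 not detected) summed to 2632, 2954, 3399 and 3928 on KO 1 to KO 4, and to 2534 to 2763 in WT livers. Single markers of this list did not share the order. The bright markers Dcn and Reln were highest on KO 4 (11.45 and 10.12 on the log2 scale). Des had 5.49, 5.10, 5.27 and 5.05 on KO 1 to KO 4, so it was lowest on KO 4. Lymphocyte markers (1 of 6 measured, Ms4a1 and Nkg7 not detected) summed to 22.5, 32.5, 37.9 and 42.7 on KO 1 to KO 4, and to 27.0 to 30.4 in WT livers. The 1 measured lymphocyte marker, Cd79b, had log2 values of 4.42, 4.98, 5.18 and 5.09 on KO 1 to KO 4. It was thus highest on KO 3, and the order of the sum rests in part on probes below the detection rule. Hepatocyte markers summed to 61843 to 69815 in KO livers and 56659 to 62302 in WT livers, with the highest sum on KO 4. The brightest of them differed in order on the log2 scale. Apoa1 was highest on KO 4 (14.14) and Ahsg on KO 3 (14.17), whereas Ttr ran from 13.98 on KO 1 to 13.81 on KO 4. The list also holds Cps1, which the paper lists as higher in KO liver. Endothelial markers (6 of 6 measured) summed to 491, 540, 523 and 571 on KO 1 to KO 4, and to 443 to 504 in WT livers. Single endothelial markers differed in direction. The log2 fold change was −0.24 for Stab2, without overlap of the groups, against 0.39 for Tek and 0.96 for Lyve1. The part of these cell populations in the S phase values was not tested.

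The remaining marker lists were not both lowest on KO 1 and highest on KO 4 among the KO livers. Neutrophil markers (3 of 8 measured, Ngp and Mpo not detected) summed to 29.4 to 137 in KO livers and 96.1 to 293 in WT livers, with the lowest KO sum on KO 4. Erythroid markers (3 of 3 measured) summed to 4040 to 12098 in KO livers and 5387 to 11643 in WT livers, again with the lowest KO sum on KO 4. Cholangiocyte markers (2 of 4 measured, Krt19 not detected) summed to 20.3 to 31.9 in KO livers and 21.2 to 38.8 in WT livers. None of the marker genes passed the test (limma). An unadjusted p under 0.05 was reached by 3 of 6 endothelial markers and by 1 marker each of hepatocytes, cholangiocytes, stellate cells and neutrophils, against 17.4% of all genes.

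Around the 51 genes, 177 other genes of the cell cycle were listed in 5 groups, of which 94 were counted and 2 passed the test, both higher in KO livers (2.13%, beside 2.54% of all genes in either direction and 1.18% higher in KO). Cdkn1c, which encodes the CDK inhibitor p57 and is imprinted, had values of 5.98, 6.80, 6.85 and 6.82 on KO 1 to KO 4, against 5.58, 5.72, 5.90 and 5.70 on WT 1 to WT 4. It was higher in all KO livers, with a difference of 0.89 ± 0.19 (SE; limma, adjusted p = 0.0391). Btg1, an antiproliferative gene of the BTG/TOB family, had values of 8.49, 8.83, 9.22 and 9.26 on KO 1 to KO 4, against 8.02, 8.25, 8.11 and 8.19 on WT 1 to WT 4. It too was higher in all KO livers, by 0.81 ± 0.17 (SE; limma, adjusted p = 0.0357). Both calls were sensitive to the processing and were lost under 12 of 18 alternatives, with adjusted p up to 0.192 for Cdkn1c and 0.263 for Btg1 (limma). When arrays were left out singly, both were called without KO 1 and neither was called without any of the other 7.

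By group, 1 of 13 other cyclins, CDKs and inhibitors and 1 of 15 genes of the Rb and E2F family and G1 control were called, and 0 of 26 other DNA replication genes, 0 of 27 other mitosis genes and 0 of 14 p53 target genes (limma). Medians were 0.14, 0.09, −0.02, 0.02 and 0.17 on the log2 scale in the same order. Of the replication, mitosis and p53 target genes 3, 2 and 3 had an unadjusted p under 0.05 (limma), against 17.4% of all genes. Tfdp1, the dimer partner of the E2F factors, had a difference of 0.33 ± 0.10 (SE; limma, adjusted p = 0.121) without overlap of the groups. Gadd45g, E2f6, Fbxw7, Ccng1 and Ccnk had differences of 1.19, 0.41, −0.22, 0.19 and 0.19 with overlapping groups. The difference of Gadd45g rested largely on WT 2, which measured 6.73 against 9.02 to 10.61 on the other WT arrays, and it was 0.46 without that array. Among replication genes the lowest p-values belonged to Pold4 (−0.31), Chaf1b (0.51), Orc6 (0.24) and Cdc45 (0.32), with adjusted p of 0.219 to 0.293 (limma), and without KO 4 Chaf1b had 0.32 and Cdc45 0.19. The median was −0.02 over these 26 replication genes and 0.22 over the 14 S phase genes, a difference that was not tested. The order of the livers was in part shared, as KO 4 had the highest value of all 8 livers in 13 of these 26 genes (50%) and KO 1 the lowest of the KO livers in 15.

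Among other mitosis genes Cenpb, which encodes a centromere-binding protein, measured 7.75 to 8.36 in KO livers and 8.43 to 8.61 in WT livers, without overlap, and its difference of −0.55 ± 0.14 (SE) missed the threshold (limma, adjusted p = 0.0646). Cenpa, the centromeric histone H3 variant, had −0.54 (limma, adjusted p = 0.282), and Cdca3 and Anapc13 had −0.42 and −0.78 (limma, adjusted p = 0.362 each), which were −0.21 for Cdca3 without WT 3 and −0.35 for Anapc13 without KO 4. KO 1 had the lowest value of the KO livers in 19 of the 27 genes. Of the p53 targets Trp53inp1 had 0.63 (limma, adjusted p = 0.0827), Sesn1 0.50 (limma, adjusted p = 0.126), Plk3 1.23 (limma, adjusted p = 0.160) and Zmat3 0.23 (limma, adjusted p = 0.377). Trp53inp1 and Sesn1 did not overlap between the groups, which makes 2 of 14 p53 targets, against 10.8% of all genes in either direction. The p53 targets named here were picked by low p and lie above WT, whereas Cdkn1a and Mdm2 among the 32 genes lie below it. Over the 14 counted p53 targets of the list the range was −0.22 to 1.23, so not all of them lay above WT. None of these p53 targets passed the test.

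The smallest fold change called anywhere on the array was 1.39-fold. Without background correction the median log2 fold changes kept their signs but were nearer to 0, at −0.05 for cyclins, inhibitors and regulators, 0.09 for S phase and −0.05 for mitosis. With each array weighted by its own spread 9 of the 32 genes were called (Ccnd1, Ccnd3, Ccne1, Mcm4, Mcm6, Tk1 and Pold1 higher, Cdkn2c and Mdm2 lower in KO), but so were 26.9% of all genes.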

How the data were processed

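Liver RNA of 4 Snd1 KO and 4 WT mice was measured, and the titles of the samples give each group and replicate number. The authors deposited bead-averaged probe intensity that was not normalised (75.2 to 22138, linear scale), a detection p-value for each deposited intensity, and a second table of processed intensity with equal medians. The software behind these values was not given in the sources used here, and the study's methods name a 2-group test in Chipster.

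In R 4.3.3 with limma 3.58.1, background was corrected by normexp from the detection p-value (offset 16), followed by quantile normalisation and log2. Of 25697 probes 23978 had 1 symbol in the platform annotation and 10945 of these were kept. The probe with the highest mean stood for its gene. Groups were compared with limma (2-sided, no covariate, Benjamini-Hochberg over 8134 genes), with an adjusted p under 0.05 as the threshold of a call. The number of arrays limits the precision, and quantile normalisation hides a change of total RNA per cell. The fit was tested on simulated data. Alternatives were another offset, no background correction, the processed values, median scaling, other filters, the mean of probes, array weights, a replicate block, the dim arrays left out and each array left out. The members and lists were chosen with earlier results of these data known. Values per array are given for Snd1, called genes, members with an unadjusted p under 0.05, the 3 largest changes per phase and, chosen after their values were seen, Mcm2, Mcm3 and Mcm5. Of each other list the called genes and up to 4 genes with the lowest p are named. No array build is named, so coordinates are those of the promoter windows alone.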

Additional observations from a re-analysis of the deposited data

Results flagged for a closer look

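Cdkn1c, which is outside the 32 counted genes, had a value of 5.98 on KO 1, against 6.80 to 6.85 on the other KO arrays. The gap to the nearest array made up 0.944 of the range of the KO group, above Dixon's 95% critical value for 4 samples. It was the only such value among 70 groups of 4 arrays checked, and chance alone flags about 1 in 20 groups.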

How the results depend on the processing

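Under 17 of 18 alternatives 0 counted genes of the cell cycle were called, and with array weights 9. The count over all genes (207) became 97 with median scaling, of which 14 were higher in KO, 96 without the detection filter, 2190 with array weights and 92 with the replicate number as a block, and it ran from 41 to 521 as each array was left out (521 without KO 1, 136 without KO 2, 49 without KO 3, 116 without KO 4, 201 without WT 1, 49 without WT 2, 41 without WT 3 and 66 without WT 4). The count in the other cell cycle lists (2) became 1 with an offset of 50, with the processed values, with the mean of probes and with the replicate block, 0 with median scaling or with no detection filter, and 26 under array weights, and it ran from 0 to 6 as each array was left out, with 6 without KO 1, 1 (Cenpb) without KO 2 and 0 without each of the others. Same-numbered KO and WT arrays correlated at −0.09 to 0.12 in their deviations from the group means, so the numbers were not taken as pairs, and the block changed no call among the 32 genes. Leaving out each array moved the medians over −0.22 to 0.05 for cyclins, inhibitors and regulators, 0.15 to 0.30 for S phase and −0.24 to −0.10 for mitosis, and the first was also above 0 without both dim arrays (0.01). The sign turned under at least 1 alternative in 11 of the 32 counted genes, all with main differences of at most 0.19 in size and none of them called (Cdk1, Cdk2, E2f1, Mcm5, Mcm7, Cdt1, Tyms, Rrm2, Lig1, Mad2l1 and Nusap1). It turned in 0 of the 20 other cell cycle genes named. Those 20 were picked by low p, which favours a stable sign, so their count cannot be compared with that of the 32 genes. With array weights Ccnd1, Ccnd3, Ccne1, Tk1, Mcm6 and Mcm4 passed the threshold (limma, adjusted p of 0.0146 to 0.0469), and the adjusted p of Ccnd1 ranged from 0.0378 to 0.307 over all alternatives. Median scaling moved the median of all genes by less than 0.1, to −0.05. The cause of these shifts was not tested. The headers give no slide or scan, so no block for them was run. Genes whose probes were not detected, such as Pcna and Ccna2, have at most an upper bound.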
